A study of Homo sapiens with 2 samples.

Results

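The chromosome 19 microRNA (miRNA) cluster is a run of closely related miRNA genes, and its members were read here in vesicles from a liver cancer cell line. Members were all array probes whose name holds miR-498, miR-512, miR-515 to miR-527, miR-1283 or miR-1323 with any letter or arm suffix. This rule uses names and no measured value, and it found 52 of the 2565 miRNA probes of the array. Those 52 probes carry 62 miRNA names, because 5 probes stand for several names each.

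The RNA came from exosomes, small vesicles that cells release, of cultures of HuH-7, an established hepatocellular carcinoma line. There were 2 groups, HuH-7-P and HuH-7-M, with 1 array each, and the labels neither spell out P and M nor give a genotype, clone or drug that sets them apart. Both cultures were kept in Dulbecco's modified Eagle's medium with 10% fetal bovine serum and penicillin streptomycin. The medium was changed to advanced DMEM, and vesicles were pelleted from the filtered supernatant at 110000 g for 70 min at 4 °C. The extraction label speaks of RNA from cells, while the sample names and sources say exosome. The comparison asks which vesicle miRNAs differ between the cultures, and with n = 1 array per group it has no replicate check, so no p-value is given and values are described as higher or lower.

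The cluster is found in primates, is imprinted, and is expressed from the paternal copy, mainly in the trophoblast of the placenta, which releases these miRNAs in vesicles into the mother's blood. It is silent in most adult tissues, adult liver among them, and its expression has been described in some tumours, including hepatocellular carcinoma. Each hairpin precursor can give a mature miRNA from its 5′ side (5p) and from its 3′ side (3p), and the seed, bases 2 to 8 of the mature miRNA, is the main determinant of which messenger RNAs are targeted.

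In the RefSeq annotation of GRCh38.p14, 41 hairpins matched to member names lie on the plus strand of chromosome 19 at chr19:53666679-53762430, a span of 95.8 kb. Of these hairpins, 24 lie inside the span of 4 annotated long noncoding RNA genes. RefSeq gave a mature sequence for 56 of the 62 names and for 47 of the 52 probes, with 47 different sequences and 30 different seeds. miR-498, miR-520b and miR-520e carry no arm in their scanner names, whereas RefSeq lists both arms. No sequence was matched for miR-518f-3p, miR-522-3p or the name miR-527, whose probe was matched through its other name, miR-518a-5p.

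The 5p sequences below carry most of the signal described in the results, and near-identical ones stand next to each other so that their values can be set beside their sequence. All are mature RNAs from RefSeq, written 5′ to 3′ with the seed in capitals.
miR-520d-5p: cUACAAAGggaagcccuuuc
miR-518a-5p: cUGCAAAGggaagcccuuuc
miR-524-5p: cUACAAAGggaagcacuuucuc
miR-526a: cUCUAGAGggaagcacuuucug
miR-519c-5p: cUCUAGAGggaagcgcuuucug
miR-518f-5p: cUCUAGAGggaagcacuuucuc
miR-526b-5p: cUCUUGAGggaagcacuuucugu
miR-518c-5p: uCUCUGGAgggaagcacuuucug
miR-516b-5p: aUCUGGAGguaagaagcacuuu
miR-519d-5p: cCUCCAAAgggaagcgcuuucuguu
miR-520f-5p: cCUCUAAAgggaagcgcuuucu
Most of these sequences share the run ggaagc and end in a similar tail. Counting from 1 at the 5′ end of the first miRNA named, miR-520d-5p and miR-518a-5p differ by A3G, inside the seed. miR-520d-5p and miR-524-5p share the seed UACAAAG and differ by C15A over their common length. miR-519c-5p and miR-526a differ by G15A, miR-526a and miR-518f-5p by G22C, miR-526a and miR-526b-5p by A5U, and miR-519d-5p and miR-520f-5p by C5U over their common length. The miR-519c-5p probe stands for 6 names with the same sequence (miR-519c-5p, miR-523-5p, miR-518e-5p, miR-522-5p, miR-519a-5p and miR-519b-5p), and the miR-526a probe stands for 3 (miR-526a, miR-520c-5p and miR-518d-5p). Whether probes for sequences this close measure them separately was not tested.

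The 3p partners of several of those 5p miRNAs, and the 3p miRNAs best known from placenta, are printed for contrast, since they were near background.
miR-520d-3p: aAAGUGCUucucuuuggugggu
miR-524-3p: gAAGGCGCuucccuuuggagu
miR-518c-3p: cAAAGCGCuucucuuuagagugu
miR-519c-3p: aAAGUGCAucuuuuuagaggau
miR-526b-3p: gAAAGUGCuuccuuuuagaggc
miR-519d-3p: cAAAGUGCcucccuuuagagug
miR-517a-3p: aUCGUGCAucccuuuagagugu
miR-517c-3p: aUCGUGCAuccuuuuagagugu
miR-520c-3p: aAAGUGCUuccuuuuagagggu
miR-512-3p: aAGUGCUGucauagcugagguc
Several hold the letters AAGUGC at or next to the seed, which they share with the miR-302 and miR-372 families of stem cells. miR-517a-3p and miR-517c-3p differ by C12U.
miR-498-5p: uUUCAAGCcagggggcguuuuuc
miR-498-3p: aAAGCACCuccagagcuugaagc
Both arms of miR-498 are shown because the scanner name does not say which arm its probe reads.

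Signal is the median intensity of a probe's spot, in arbitrary units, and each miRNA probe has 1 spot per array, so a single probe's value carries no error of its own. Background was read from 320 BLANK spots, which averaged 59.7 ± 1.64 (SD) on the array of HuH-7-P and 58.7 ± 1.63 on that of HuH-7-M. A probe was called above the BLANK limit past 62.3 on the array of HuH-7-P and 61.2 on that of HuH-7-M, the BLANK mean plus 2 SD with the top and bottom 5% of spots left out. The 85 spots labelled No Probe were brighter, with means of 79.8 ± 7.20 and 81.1 ± 5.73, and all 85 passed the BLANK limit on each array. A stricter No Probe limit, computed the same way from those spots, stood at 86.9 and 89.9. Depth in the sequencing sense does not exist for an array; the number of arrays limits the precision. Hepatocyte miRNAs, which mark the labelled cell type, passed the BLANK limit on both arrays for 5 of 5 probes and the No Probe limit for 2, and miR-122-5p, the main liver miRNA, read 99.7 for HuH-7-P vesicles and 126 for those of HuH-7-M.

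In both cultures the cluster was weak, and a part of its 5p miRNAs stood above background while its 3p miRNAs hardly did. The BLANK limit was passed by 31 of 52 members for HuH-7-P vesicles and 30 for those of HuH-7-M, and by 29 on both (55.8%). Of all 2565 miRNA probes, 1669 passed it for HuH-7-P vesicles, 1671 for those of HuH-7-M and 1593 on both (62.1%). The No Probe limit was passed by 11 members for HuH-7-P vesicles, 9 for those of HuH-7-M and 9 on both (17.3%), against 30.8% of all miRNA probes. Of the members that did not pass the BLANK limit on both arrays, 2 passed it on HuH-7-P alone, 1 on HuH-7-M alone and 20 on neither array. On both arrays 15 members lay below the BLANK mean. That last count was not taken over all miRNA probes, so it does not set the members apart. As a check on this background, 13 members exceeded on both arrays the highest mean of a labelled negative control probe (1011 of all miRNA probes did), 72.8 for HuH-7-P vesicles and 78.9 for those of HuH-7-M.

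**Figure D1:**
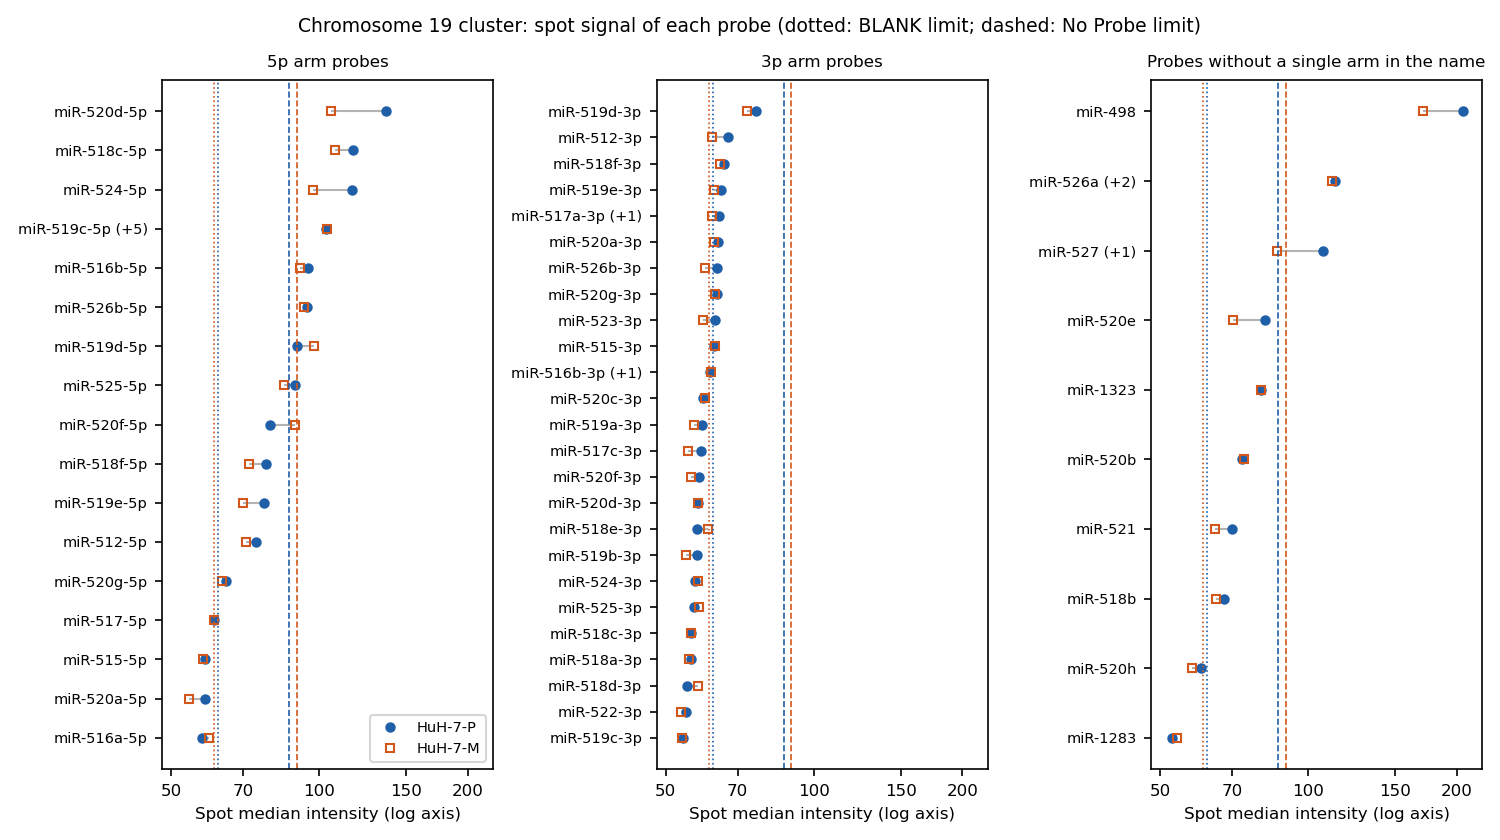
Spot median intensity (log axis, arbitrary units) of each of the 52 probes on the HuH-7-P array (filled circles) and the HuH-7-M array (open squares), in panels by arm, with the BLANK limit dotted and the No Probe limit dashed in each array's colour. No 3p probe reaches the No Probe limit, whereas 7 probes with a 5p name, miR-498 and the miR-526a probe pass it on both arrays.

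By arm, 13 of 17 members with a 5p name passed the BLANK limit on both arrays (76.5%) and 7 passed the No Probe limit (41.2%). Of 25 members with a 3p name, 8 passed the BLANK limit on both arrays (32.0%), and 0 passed the No Probe limit on either array. The highest 3p spot was that of miR-519d-3p, at 76.2 for HuH-7-P vesicles and 73.1 for those of HuH-7-M. Among the other miRNA probes of the array the arms lay closer together, with 63.4% of 846 5p probes and 61.5% of 856 3p probes above the BLANK limit on both arrays. Past the No Probe limit the other probes split into 36.4% for 5p and 24.5% for 3p. Of the 10 members without a single arm in the name, 8 passed the BLANK limit and 2 the No Probe limit on both arrays. This comparison of arms is a description of single arrays and was not tested.

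**Figure D2:**
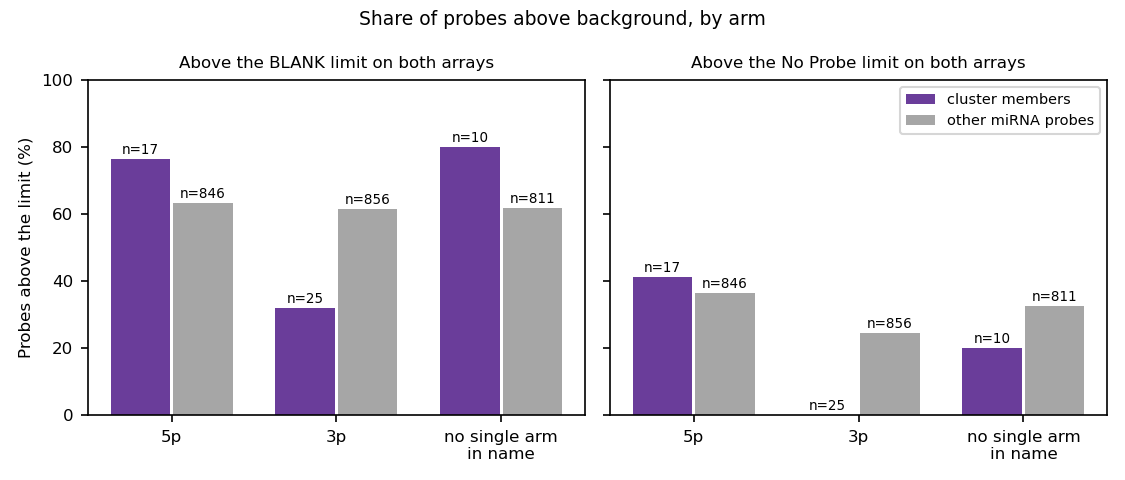
Percent of probes above the BLANK limit (left) and the No Probe limit (right) in both cultures, for 5p probes, 3p probes and probes without a single arm in the name, with cluster members in purple, all other miRNA probes in grey and the number of probes over each bar. The 3p bar of the cluster stands at 32.0% on the left and at 0% on the right, against 76.5% and 41.2% for its 5p bar.

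The same split appeared within hairpins, read from the same spots. Of the 41 hairpins, 30 had a probe for each arm, with some probes shared between hairpins (18 different 5p and 23 different 3p probes). In 17 of them (56.7%) the 5p probe alone passed the BLANK limit on both arrays, in 5 the 3p probe alone, in 5 both and in 3 neither. The 5 with 3p alone were the hairpins of miR-515 (both copies), miR-517a, miR-517b and miR-520a, with spots of at most 64.3. In 14 of the 30 hairpins the 5p probe passed the No Probe limit in both cultures, and in 0 the 3p probe did. Both the 17 and the 14 count some spots repeatedly, since the miR-519c-5p, miR-526a and miR-516b-5p probes are each shared between hairpins. Outside the cluster, 751 hairpins had a probe for each arm, and there the 5p probe alone passed the BLANK limit in 113 and the 3p probe alone in 107. Past the No Probe limit, the 5p probe stood alone in 149 of those hairpins and the 3p probe in 65.

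Along the cluster, members that passed the No Probe limit on each array had gene copies in every stretch. The span was divided into 3 stretches of equal length, and a probe with several gene copies was counted in each stretch that holds a copy. The 5 probes without a matched sequence were left out of these counts. Among them is miR-498, whose hairpin lies in the first stretch and which passed the No Probe limit on both arrays. The first stretch, from the miR-512 copies on, held 20 probes, of which 11 passed the BLANK limit and 2 the No Probe limit on both arrays. The middle stretch, with miR-518c, miR-524, miR-519d and miR-520d, held 21 probes, of which 14 and 7 passed. The last stretch, up to the second copy of miR-519a, held 14 probes, of which 5 and 3 passed. Those 3, the miR-519c-5p, miR-526a and miR-516b-5p probes, have copies in the middle stretch too, so no probe confined to the last stretch passed the No Probe limit on both arrays.

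**Figure D3:**
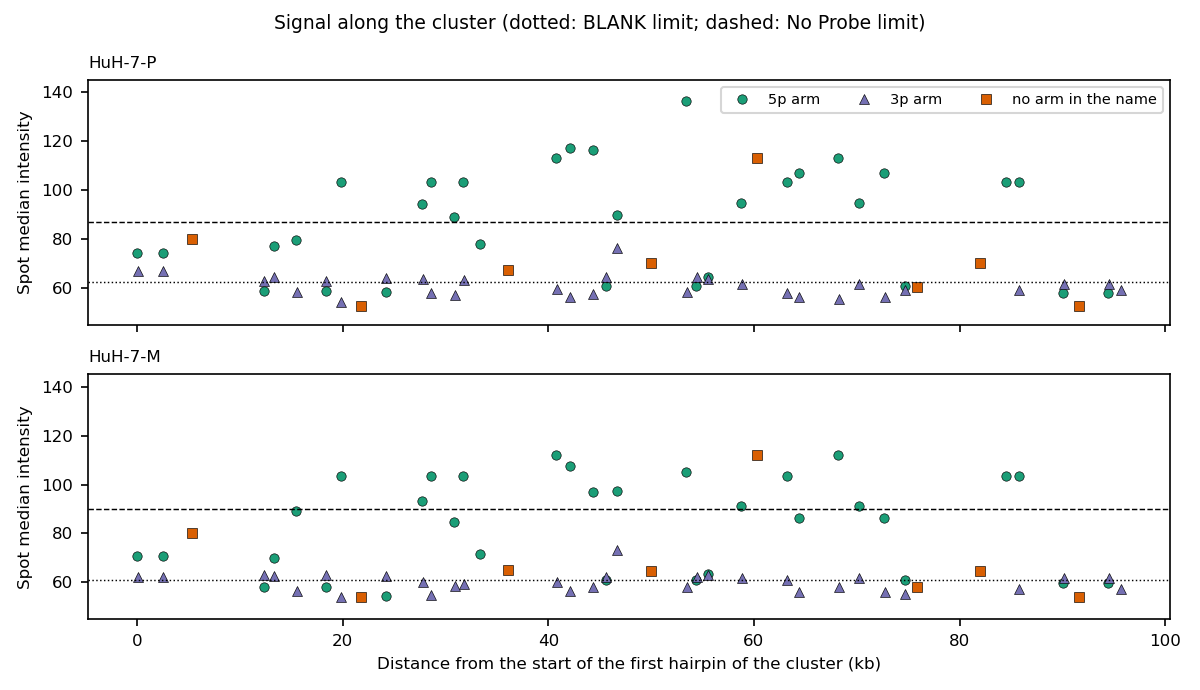
Spot median intensity of each matched mature miRNA against the distance of its gene copy from the start of the first hairpin (kb), on HuH-7-P (top) and HuH-7-M (bottom), with 5p arms as circles, 3p arms as triangles and names without an arm as squares, the BLANK limit dotted and the No Probe limit dashed. Probes for several gene copies appear at each copy, the 5 probes without a matched sequence (miR-498 among them) are not drawn, and circles above the dashed line occur in each stretch of the cluster.

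Detection of the members differed with short runs of their sequence. The letters GGG, GGGAAG and AAGUGC, along with CUUCC, were searched on the mature RNA strand as printed, after these sequences had been seen, and GGGAAG contains GGG. GGGAAG occurs in 11 of the 47 members with a sequence (23.4%) and in 34 of all 2264 matched probes. Of those 11 members, 10 passed the BLANK limit and 7 the No Probe limit in both cultures (63.6%). Of the 36 matched members without it, 15 and 1 passed. Of the array's other probes 23 hold GGGAAG, of which 23 passed the BLANK limit and 18 the No Probe limit (78.3%). GGG in any context occurs in 20 matched members, of which 7 passed the No Probe limit (35.0%), and in 719 other probes, of which 60.5% did, against 16.4% of the 1498 others without it. AAGUGC occurs in 13 members, of which 5 passed the BLANK limit and 0 the No Probe limit. Of 24 other probes with AAGUGC, 12 and 2 passed. CUUCC, a run of many 3p members, went with detection differently inside and outside the cluster. It occurs in 14 members, of which 3 passed the BLANK limit (21.4%) against 66.7% of the 33 without it, and in 75 other probes, of which 74.7% passed against 62.0% without it. Within the cluster, every probe with GGGAAG carries a 5p name, and none with AAGUGC or CUUCC does. The counts by these runs therefore largely repeat the split by arm, and run and arm were not separated. A match describes the letters of the miRNA, and how far probe chemistry moves with them was not tested.

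For the difference between cultures, the BLANK mean was subtracted, each array was divided by the median signal of its miRNA probes above the BLANK limit (30.4 on the array of HuH-7-P and 29.7 on that of HuH-7-M), and log2 of HuH-7-M minus log2 of HuH-7-P was taken. Over the 29 members above the BLANK limit on both arrays the median log2 difference was -0.16 (quartiles -0.45 and 0.03), against 0.04 over all 1593 such probes. It was below 0 for 18 of the 29 members (62.1%) and for 45.8% of all such probes. At a size of 2-fold, 0 members were higher on HuH-7-M, against a background of 3.95%, and 1 member was lower, against 4.21%. In either direction 1 of 29 members stood 2-fold apart, against 8.16% of all such probes. When each array was scaled on its spike controls instead, 9 of the 29 were at least 2-fold lower on HuH-7-M, as were 259 of all 1593 such probes. Below 0 were 28 of the 29 members and 1388 of the 1593 probes. The median was -0.78, against -0.58 over all probes. On that scale the 1 of these 29 members that stayed above 0 was miR-520f-5p, at 0.046.

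**Figure D4:**
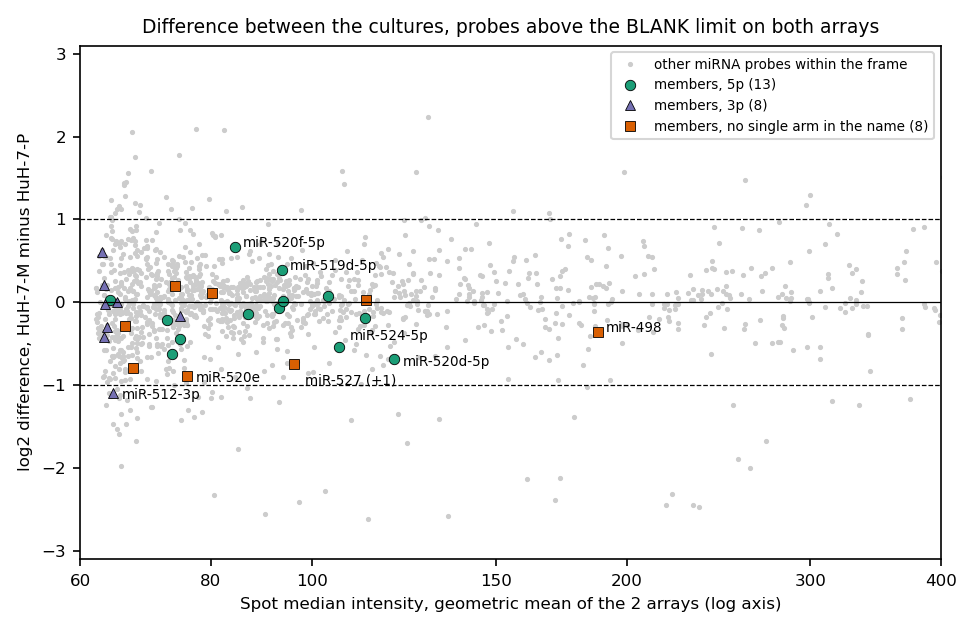
log2 difference between the cultures (HuH-7-M minus HuH-7-P, main scaling) against the geometric mean of a probe's spot intensity on the 2 arrays (log axis), for probes above the BLANK limit on both arrays, with members coloured by arm, other miRNA probes in grey and dashed lines at 2-fold. Other probes brighter than the axis or farther apart lie outside the frame, and the members run from -1.09 for miR-512-3p to 0.66 for miR-520f-5p.

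The spread of repeated control spots gives a scale for these differences. Of the control probes with at least 8 spots, 8 had mean signals within the members' range, and for 5 of them the SD of a difference between a spot of each array was 2.49 to 6.28 units. For the other 3 it was 20.4, 27.9 and 38.8. The spot difference between arrays exceeded 6.28 units for 9 of the 29 members, lower on HuH-7-M for 7 and higher for 2, exceeded 20.4 for 3 and exceeded 38.8 for 0. For No Probe spots the SD of a difference between a spot of each array was 9.20 units, and 4 members lay past 2 such SD. The same counts over all miRNA probes were not taken, so these counts do not set the members apart from the rest of the array. Of those 8 control probes, 7 were brighter on HuH-7-M, with scaled log2 differences over the 8 of -0.46 to 1.53.

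The 3 miRNAs whose seed ends in CAAAG and is followed by ggaagc were lower on HuH-7-M. miR-520d-5p, whose seed is UACAAAG, read 137 for HuH-7-P vesicles and 105 for those of HuH-7-M, a spot difference of -31.2 and a log2 difference of -0.69. miR-524-5p, with the same seed, read 116 and 96.9, a log2 difference of -0.54. The probe for miR-527 and miR-518a-5p, which differs from miR-520d-5p at A3G, read 107 and 86.3, a log2 difference of -0.75, and passed the No Probe limit on HuH-7-P alone. All 3 stayed lower on HuH-7-M under each scaling and background setting tried, and their spot differences of -31.2, -19.4 and -20.7 lay above the narrow control spread and inside the widest. With the No Probe mean subtracted and each array rescaled by its new median, the miR-527 and miR-518a-5p probe stood at -1.89. The median over all 949 probes left in that setting was 0.46. They come from different hairpins, and given their near-identical sequences it was not tested whether they are independent measurements. The 3 probes are not a single seed group, since their seeds are UACAAAG and UGCAAAG. miR-519d-5p also holds CAAAG followed by ggaagc, further along and partly outside its seed. It was higher on HuH-7-M, with a log2 difference of 0.39.

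In the UCUAGAG seed group, 5p miRNAs of 10 names on 3 probes, 2 probes had spots close together between the arrays. The miR-519c-5p probe read 103 for HuH-7-P vesicles and 104 for those of HuH-7-M, a log2 difference of 0.08. The miR-526a probe read 113 and 112, a log2 difference of 0.03. Both probes were above the No Probe limit in each culture, and their spot differences lay within the narrow control spread. With the No Probe mean subtracted they became 0.43 and 0.37, against a median of 0.46 over all probes in that setting. miR-518f-5p, which differs from miR-526a at G22C, read 77.9 and 71.8, a log2 difference of -0.45, below the No Probe limit. miR-526b-5p, which differs from miR-526a at A5U and so has another seed, read 94.4 and 93.1, a log2 difference of 0.02, and 0.20 with the No Probe mean subtracted. Without scaling between arrays the miR-526a probe and miR-526b-5p turned to -0.0069 and -0.014, so neither has a settled direction.

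miR-498 read 206 for HuH-7-P vesicles and 171 for those of HuH-7-M, a spot difference of -35.5 and a log2 difference of -0.35. With the No Probe mean subtracted in place of the BLANK mean, this became -0.017, against a median of 0.46 over all 949 probes left. That setting also changes the scale of each array, so the shift is not one of background alone. miR-518c-5p read 117 and 108, a log2 difference of -0.19, and -4.94e-05 with the No Probe mean subtracted. miR-516b-5p, encoded in both miR-516b gene copies, read 94.6 and 91.3, a log2 difference of -0.07. miR-525-5p, a 5p miRNA described in placenta, read 89.0 and 84.6, a log2 difference of -0.15 that became -0.89 with the No Probe mean subtracted, and passed the No Probe limit on HuH-7-P alone.

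Of the 29 members, 11 had a log2 difference above 0, and the 5 highest follow. miR-520f-5p read 79.5 for HuH-7-P vesicles and 89.3 for those of HuH-7-M, a log2 difference of 0.66. miR-519d-5p, which differs from it at the C5U of the list above, read 89.9 and 97.3, a log2 difference of 0.39 (1.17 with the No Probe mean subtracted). The spot differences of miR-520f-5p and miR-519d-5p, 9.82 and 7.44, were beyond the narrow control spread. Against the SD of 9.20 for No Probe spots, 7.44 was smaller and 9.82 little larger. The identity of these probes and of miR-520g-5p rests on the scanner names, because the authors' deposited table carries their values under other identifiers. miR-515-3p read 62.7 and 63.1, a log2 difference of 0.60 that rests on a spot difference of 0.43. miR-520b read 73.5 and 74.2, a log2 difference of 0.20, and miR-520g-3p read 63.5 and 63.0, a log2 difference of 0.21.

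By log2 difference, the lowest values on HuH-7-M relative to HuH-7-P belonged to probes under the No Probe limit, whereas the largest spot differences were those of miR-498 and miR-520d-5p. miR-512-3p, a 3p miRNA known from placenta and the 1 member past 2-fold, read 67.0 for HuH-7-P vesicles and 62.1 for those of HuH-7-M, with BLANK-subtracted signals of 7.29 and 3.35 and a log2 difference of -1.09. Its spot difference of -4.94 compares with an SD of 2.31 for the difference of 2 BLANK spots, and normexp background correction with an offset of 50 left -0.092. miR-520e read 81.8 and 70.4, a log2 difference of -0.89. Its spot difference of -11.5 was beyond the narrow control spread and compares with an SD of 9.20 for No Probe spots. miR-521, encoded in 2 copies, read 70.1 and 64.6, a log2 difference of -0.79. For probes above the BLANK limit on 1 array only, miR-526b-3p was at least 1.56-fold higher on HuH-7-P, as was miR-523-3p by at least 1.34-fold. Their spot differences of -3.58 and -3.59 compare with the same SD of 2.31, and normexp with an offset of 50 left log2 differences of -0.053 and -0.048. Each bound sets the bright signal against the lowest signal above the limit on the other array. The probe for miR-516b-3p and miR-516a-3p passed the BLANK limit on HuH-7-M alone, with spots of 61.7 and 61.8, a spot difference of 0.10 that is inside the BLANK spread. Its bound of at least 1.18-fold higher on HuH-7-M was lost with spike control scaling.

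Apart from miR-525-5p and miR-526b-5p, described with the 5p members, the members best known from placenta were near or below background in both cultures. The probe for miR-517a-3p and miR-517b-3p, long used as a plasma marker of pregnancy, read 64.3 for HuH-7-P vesicles and 62.1 for those of HuH-7-M, just past the BLANK limit. miR-517c-3p, which differs from miR-517a-3p at C12U, read 59.1 and 55.4 and was not above background. miR-515-5p read 58.7 and 58.0, and miR-520c-3p, a member described as promoting migration in tumour cells, read 59.6 and 60.2, neither above background. miR-518b read 67.4 and 64.9 and miR-519d-3p 76.2 and 73.1, above the BLANK limit and below the No Probe limit. The AAGUGCA group of miR-519a-3p, miR-519b-3p and miR-519c-3p passed the BLANK limit on both arrays for 0 of 3 probes, and the AAGUGCU group of miR-520a-3p, miR-520c-3p and miR-520d-3p for 1 of 3. miR-1283, encoded in 2 copies, read 52.8 and 54.1. For the probes not above background, these values say that the miRNAs were not detectable, not that they were absent.

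Trophoblast miRNAs outside the cluster gave a similar picture, with 3 of 7 above the BLANK limit on both arrays and summed BLANK-subtracted signals of 68.9 for HuH-7-P vesicles and 64.2 for those of HuH-7-M. Of these, miR-200c-3p, an epithelial miRNA, was above the No Probe limit on each array, the sole probe of the list, while miR-372-3p, miR-141-3p and miR-141-5p were above the BLANK limit on neither. Blood miRNAs passed the BLANK limit on both arrays for 4 of 6 probes and the No Probe limit for 0, with sums of 57.6 and 51.4. Stromal and endothelial miRNAs passed the BLANK limit on both arrays for 1 of 5 probes, with sums of 49.3 and 64.0. That probe, miR-214-3p, read 104 for HuH-7-P vesicles and 120 for those of HuH-7-M, above the No Probe limit on each array. The hepatocyte list summed to 119 and 149. All these sums count a signal below the BLANK mean as 0. The part of other cell types in the cluster's signal was not tested.

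A pair of other clusters was set beside this one. The DLK1-DIO3 miRNAs of chromosome 14, a large imprinted cluster expressed from the maternal copy, had 45 of 91 probes (49.5%) that passed the BLANK limit in both cultures and 12 (13.2%) that also passed the No Probe limit. Their median log2 difference was -0.065, and past 2-fold 1 probe was higher and 6 were lower on HuH-7-M. The miR-371 to miR-373 cluster, active in pluripotent cells, starts 25.2 kb past the last hairpin of this one and has 8 probes, of which 5 and 3 passed. Those 3 were 5p miRNAs as well: miR-371a-5p read 339 for HuH-7-P vesicles and 319 for those of HuH-7-M, miR-373-5p 183 and 185, and miR-371b-5p 159 and 228. Of its 3p miRNAs, miR-371b-3p read 81.6 and 82.1 and miR-373-3p 66.2 and 63.3, both above the BLANK limit and below the No Probe limit. miR-371a-3p passed the BLANK limit on HuH-7-M alone, and miR-372-3p did on neither array. Not all its 5p miRNAs were detected, since miR-372-5p read 63.7 and 56.3 and passed on HuH-7-P alone. With 1 array per culture, none of these differences between clusters could be tested.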

How the data were processed

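Vesicle RNA of 1 culture each, HuH-7-P or HuH-7-M, was labelled with Cy5 and hybridised to 1 Toray 3D-Gene miRNA array each, per the labels' protocols. Each deposited scanner file gives, per the file headers, 3200 spots with a spot median intensity at 635 nm, unsubtracted and unscaled; the scanner software was not given in the sources used here. The authors' deposited table holds background-subtracted, scaled intensity values, matched to probes by value (relative tolerance 1e-06) and used as an alternative.

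Samples were grouped by title. From the spot median the BLANK mean was subtracted, each array was divided by its median over miRNA probes above the BLANK limit, and log2 differences were taken (Python 3.11.15, numpy 2.4.6, pandas 2.3.3). No test was possible with 1 array per group. The size threshold was 2-fold. The script was tested on simulated data. Alternatives were other scalings (none, quantile, 75th percentile, spike controls), backgrounds (trimmed BLANK mean, No Probe mean, normexp with offsets 50 and 16 plus quantile in limma 3.58.1, R 4.3.3), filters, and the authors' values. Names follow the scanner. Members named in the text were those above the No Probe limit on either array, the 5 highest and 5 lowest differences, and members known from placenta; miR-518f-5p, miR-1283, the 3 members with bounds and the members named only in a seed or hairpin group were added after their values were seen. Members and lists were chosen with earlier results of these data known. A bound sets the brighter scaled signal against the lowest scaled signal above the limit on the other array.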

Additional observations from a re-analysis of the deposited data

Results flagged for a closer look

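The scanner files hold a second intensity column, headed as a background median, that entered no comparison. Read with a limit computed from its own BLANK spots, 67.5 for HuH-7-P vesicles and 64.7 for those of HuH-7-M, 19 of the 52 members (36.5%) stood above that limit on both arrays, as did 1166 of all 2565 miRNA probes (45.5%). The column is listed because no comparison used it, not as a separate finding on these members. For miR-498 the column read 173 and 166, for miR-520d-5p 135 and 113, and for miR-520f-5p 67.8 and 82.9. What the column measures was not given in the sources used here and was not tested.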

How the results depend on the processing

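The median difference of the members kept its sign under each alternative tried. Of the 29 members, those above 0 changed sign with spike control scaling, except miR-520f-5p. Without scaling, the miR-526a probe, miR-526b-5p, miR-518f-3p and miR-520g-5p also turned below 0. In the other direction, miR-520a-3p, at -0.015, turned above 0 with quantile (0.020) and 75th percentile (0.030) scaling and with normexp. The count of members at least 2-fold apart, 1 of 29, became 9 with spike control scaling (median -0.78). It was 0 with normexp and quantile normalization at offset 50 (median -0.025) or 16 (median -0.068). With the No Probe mean subtracted it was 2 of 11, with 1 higher (miR-519d-5p at 1.17) and 1 lower. The members' median in that setting was -0.017, against 0.46 over all 949 probes. By filter, the count was 0 of 9 above the No Probe limit (median -0.068), 0 of 25 above the BLANK mean plus 3 SD, and 3 of 33 with no filter. Over all 1593 probes the split at 2-fold was 63 higher and 67 lower, but 8 and 259 with spike control scaling. It was 7 and 28 with normexp offset 50, 16 and 40 with offset 16, and 184 and 65 of 949 with the No Probe mean subtracted. With the filters it was 32 and 25 of 790 probes above the No Probe limit and 53 and 58 of 1526 above the BLANK mean plus 3 SD. With no filter it was 117 and 137 of 1773. Members above background on both arrays were 29 at the BLANK limit, 25 at the stricter BLANK limit and 9 at the No Probe limit. Offsets pull dim differences toward 0 by construction, and other causes were not tested. No scaling, quantile, 75th percentile, trimmed BLANK mean and the authors' values left the count at 1 and the median between -0.20 and -0.12. Under the authors' own identifiers, tried once the data had been seen, the count was 1 and the median -0.18 over 28 members. No paired analysis was possible because each group had 1 array, and leaving out an array was not possible either.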
